A study of Mus musculus with 6 samples.

Results

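The genes described are the matrix metalloproteinases (MMPs), the disintegrin metalloproteinases (ADAMs), their thrombospondin-repeat relatives (ADAMTSs and the ADAMTS-like proteins) and the tissue inhibitors of metalloproteinases (TIMPs). Members were taken by symbol: every probe set with exactly 1 gene symbol that began with Mmp, Timp, Adam, Adamts or Adamtsl followed by a digit. This gave 124 of 45101 probe sets and 70 genes, of which 56 probe sets and 35 genes were bright enough to be tested, among 27821 probe sets and 12628 genes tested in all. The 35 tested genes were 8 of 18 MMPs, 4 of 4 TIMPs, 11 of 28 ADAMs, 11 of 15 ADAMTSs and 1 of 5 ADAMTS-like genes.

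Most members are zinc-dependent proteases that work outside the cell or at its surface. MMPs cut collagens, laminins and other matrix proteins, ADAMs shed the outer parts of membrane proteins such as Notch receptors and growth factor precursors, and ADAMTSs process procollagens and cut proteoglycans such as versican. TIMPs block the active site of these enzymes, and Timp3, which stays bound to the matrix, also acts on several ADAMs and ADAMTSs. In the embryo such enzymes remodel the basement membrane and the matrix between the germ layers, along which the node and the notochord lie.

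The study compared cells of mouse embryos that were heterozygous for a green fluorescent protein (GFP) reporter at Noto, a homeobox gene of the node and of the cells that form the notochord. Embryos were of embryonic day 8.5, of both sexes, on a mixed 129S3 and ICR background, with a median of 6 somites. The tissue behind the first somites was pooled from 23, 39 or 52 embryos, and each pool was sorted into a GFP-positive and a GFP-negative fraction, each measured on 1 array of amplified RNA, so each group held 3 arrays. The labels give 1% trypsin for every sample of both fractions. Both fractions carried the same reporter allele, and the GFP-negative fraction was the mixture of all other cells of the dissected tissue. About 2600, 4300 and 6600 GFP-positive cells were sorted from pools 1, 2 and 3.

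The sort was seen in the markers: all 10 measured genes of a node and notochord list passed as higher in GFP-positive cells, where 2.95% of all genes did. Their summed intensity was between 10224 and 14413 on the GFP-positive and between 525 and 944 on the GFP-negative arrays. The list was chosen with earlier results of these data known, and its gene Dand5 was tested through the GFP-positive arrays alone. Both arrays of pool 1 stood apart, with a ratio of 3′ to 5′ control signal of 14.0 to 22.7 for Gapdh and beta-actin, against 1.60 to 2.75 on the other 4 arrays. The GFP-negative array of pool 1 correlated at 0.964 with the GFP-positive array of its pool, and at 0.938 and 0.914 with the GFP-negative arrays of pools 2 and 3. Results that rest on pool 1 are given with and without it. On arrays of sorted bulk cells, fewer cells of a type and less RNA per cell cannot be told apart.

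Among the 35 tested genes, 2 were higher in GFP-positive cells (Mmp14 and Timp4) and 3 were lower (Adamts3, Mmp9 and Adamts9), at an adjusted p under 0.05 in limma. Over all 12628 genes, 2.95% were higher and 1.71% lower by the same rule. With the pool as a block, which compares the fractions within each pool, Adamts20, Timp3 and Adamts10 passed as higher too, giving 5 higher and the same 3 lower; over all genes the blocked fit called 7.76% higher and 5.99% lower. The median log2 difference of the 35 genes was -0.08, against 0.01 over all genes tested. Of the 35, 11 were higher in GFP-positive cells in every pool, 10 were lower in every pool and 14 changed sign between pools. The 3 GFP-positive arrays lay above all GFP-negative arrays for 9 members and below them for 6, where 15.6% and 12.2% of all genes did so.

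**Figure D1:**
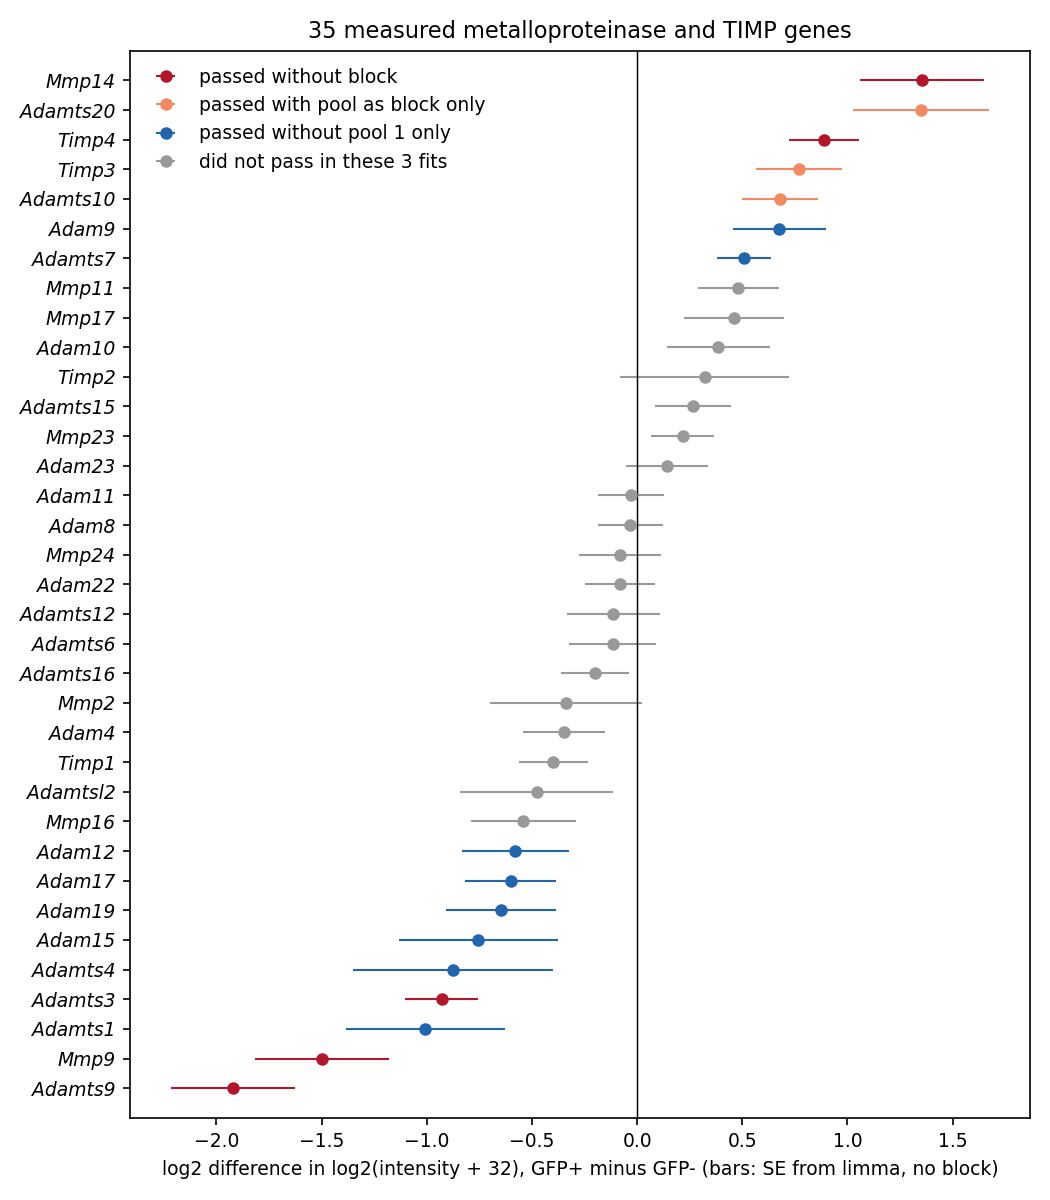
Log2 difference (GFP-positive minus GFP-negative, on log2(intensity + 32)) of each of the 35 tested members, with the standard error from limma as bars and colours for the fits each passed. Mmp14 and Adamts20 are highest, at 1.35 each, Adamts9 is lowest at -1.92, and 18 members lie within 0.5 of zero.

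Mmp14, the membrane-anchored MMP that cuts collagens at the cell surface and activates the Mmp2 precursor, rose in GFP-positive cells. Its intensity was 203, 348 and 376 on the GFP-positive arrays of pools 1, 2 and 3, and 64.9, 101 and 137 on the GFP-negative arrays. The groups did not overlap, and in both of them pool 1 was lowest. The log2 difference was 1.35 ± 0.30 (SE; adjusted p = 0.0428 in limma, 0.00344 with the pool as a block), and 1.28, 1.51 and 1.27 within the pools. Its second tested probe set was dim, at 14.0 to 30.0, and had a log2 difference of 0.14.

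Timp4, an inhibitor of MMPs, also rose. It had intensities of 63.0, 45.6 and 61.8 in GFP-positive and 20.8, 10.7 and 16.3 in GFP-negative cells. The lowest GFP-positive array was above every GFP-negative one. However, the GFP-negative arrays of pools 2 and 3 were below the brightness filter (14.3 and 18.4), and the GFP-positive arrays alone were enough for testing. No support is drawn from the lack of overlap. A second probe set, at 2.40 to 5.05, was too dim to be tested. The log2 difference of Timp4 was 0.89 ± 0.17 (SE; adjusted p = 0.0252 in limma), with 0.85, 0.86 and 0.96 within pools. The fold is understated for genes this dim, since 32 was added to every intensity. Adding 16 or 64 in its place gave 1.19 or 0.595 for Timp4, -1.84 or -1.11 for Mmp9 and -1.15 or -0.67 for Adamts3, which all passed in both.

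Adamts9, a proteoglycan-cutting ADAMTS, showed the widest difference of the members. It had 136, 123 and 139 in GFP-positive and 367, 851 and 650 in GFP-negative cells. The GFP-positive arrays were nearly level, and the GFP-negative array of pool 1 was the lowest of its group but still above all of them. It fell by 1.92 ± 0.30 on the log2 scale (SE; adjusted p = 0.0131 in limma). A second probe set of Adamts9 gave -1.55 ± 0.24 (SE; adjusted p = 0.0214 over all probe sets), and another, at 21.6 to 49.9, gave -0.07.

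Mmp9, a gelatinase that degrades type IV collagen and gelatin, was lower in GFP-positive cells. Its intensities were 11.3, 24.9 and 33.3 there, and 61.3, 156 and 176 in GFP-negative cells. Pool 1 was lowest in both groups, which did not overlap. The log2 difference was -1.50 ± 0.32 (SE; adjusted p = 0.0397 in limma, 0.00375 with the block), and a dimmer second probe set gave -0.58.

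Adamts3, which removes the N-terminal propeptide of procollagens, was lower as well. Arrays of GFP-positive cells had 26.8, 37.4 and 25.9, and those of GFP-negative cells 96.5, 87.4 and 74.3. No array crossed between the groups, and here the GFP-negative array of pool 1 was the highest. It fell by 0.93 ± 0.17 on the log2 scale (SE; adjusted p = 0.0246 in limma), by 1.13, 0.78 and 0.88 within pools.

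None of these 5 calls held when either array of pool 2 or of pool 3 was left out, or both of one of these pools, with adjusted p between 0.0531 and 0.527 in limma. Calls were lost over all genes alike: 84 to 174 of 12628 passed without 1 of these arrays, 5 without pool 2 and 59 without pool 3, against 588 with all arrays. In these settings the log2 difference was 1.20 to 1.55 for Mmp14, 0.81 to 0.98 for Timp4, -1.01 to -0.88 for Adamts3, -1.63 to -1.28 for Mmp9 and -1.95 to -1.62 for Adamts9. Without the GFP-positive array of pool 1, where 540 of all genes passed, Timp4, Adamts3 and Mmp9 lost the call too (adjusted p = 0.0563, 0.0534 and 0.0955). Without the GFP-negative array of pool 1, or without that pool, all 5 passed, and no setting turned the sign of any of them. When p-values were adjusted over probe sets in place of genes, 1 member probe set passed as higher (Timp4) and 3 as lower (Adamts3 and both brighter ones of Adamts9), against 1.26% and 0.55% of all probe sets; Mmp14 and Mmp9 then had adjusted p = 0.067 and 0.0621. With the block 6 and 5 member probe sets passed, Mmp14 and Mmp9 among them, against 4.93% of all probe sets in each direction.

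**Figure D2:**
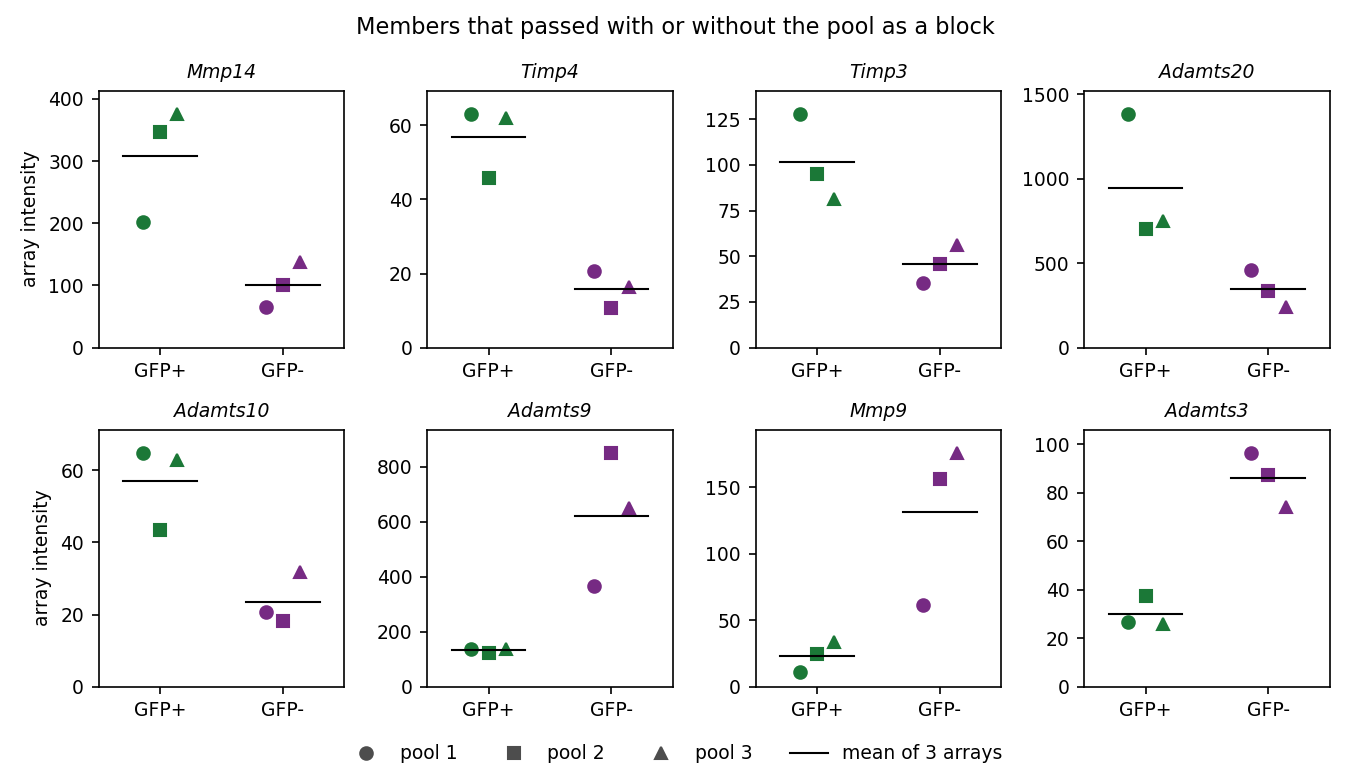
Array intensity of the 8 members that passed with or without the pool as a block, for the 3 GFP-positive and 3 GFP-negative arrays, with a symbol for each pool and a line at the mean of each group. In none of the 8 do the groups overlap; Mmp14 spans 203 to 376 in GFP-positive and 64.9 to 137 in GFP-negative cells.

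To show the start regions behind these transcripts, the promoter windows of the called genes are printed 5′ to 3′, from 250 bases before to 50 bases after the RefSeq gene start (GRCm38.p6). Of the 35 tested genes, 21 had such a window, and Mmp9 had none in the table used. Capitals mark matches on either strand to any of 5 motifs. The AP-1 motif was searched as TGANTCA. The forkhead motif was searched as TGTTTNC and the GC box as GGGCGG. The CCAAT box was searched by the letters of its name, and the TATA box as TATAAA.
Mmp14 (chr14:54431348-54431647, plus strand): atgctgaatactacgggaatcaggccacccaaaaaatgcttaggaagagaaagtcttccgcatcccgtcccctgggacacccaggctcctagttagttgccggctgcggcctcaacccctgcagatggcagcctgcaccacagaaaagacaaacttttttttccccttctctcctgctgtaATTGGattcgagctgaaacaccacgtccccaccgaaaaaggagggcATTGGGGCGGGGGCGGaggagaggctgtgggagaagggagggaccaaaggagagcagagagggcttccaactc
Timp4 (chr6:115252156-115252455, minus strand): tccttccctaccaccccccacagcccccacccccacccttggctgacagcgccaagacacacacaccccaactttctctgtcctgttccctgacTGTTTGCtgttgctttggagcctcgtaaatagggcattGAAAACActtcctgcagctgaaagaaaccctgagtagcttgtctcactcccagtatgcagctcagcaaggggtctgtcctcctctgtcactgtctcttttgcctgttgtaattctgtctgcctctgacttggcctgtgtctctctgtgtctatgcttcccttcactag
Adamts3 (chr5:89883285-89883584, minus strand): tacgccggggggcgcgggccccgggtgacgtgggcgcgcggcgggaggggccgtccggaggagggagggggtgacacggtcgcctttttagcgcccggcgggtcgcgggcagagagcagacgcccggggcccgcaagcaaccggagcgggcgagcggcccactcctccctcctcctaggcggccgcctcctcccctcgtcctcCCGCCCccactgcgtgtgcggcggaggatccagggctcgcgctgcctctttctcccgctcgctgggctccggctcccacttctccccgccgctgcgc
Adamts9 (chr6:92943485-92943784, minus strand): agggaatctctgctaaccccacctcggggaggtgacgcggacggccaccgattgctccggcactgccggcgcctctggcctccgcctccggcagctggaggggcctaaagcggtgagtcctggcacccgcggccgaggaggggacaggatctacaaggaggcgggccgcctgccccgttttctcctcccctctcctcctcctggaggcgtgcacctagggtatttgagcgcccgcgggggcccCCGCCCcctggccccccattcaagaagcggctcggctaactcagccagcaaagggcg

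The Mmp14 window held 2 GC boxes and 2 CCAAT boxes, the nearer CCAAT box sharing 1 base with a GC box. The windows of Adamts3 and Adamts9 held 1 GC box each, and that of Timp4 held 2 forkhead matches and none of the other motifs. Over all 32851 windows of 300 bases, 35.7% held a GC box, 37.4% a CCAAT box, 20.5% a forkhead match, 13.6% a TATA box and 7.81% an AP-1 match. Of the 24 windows of the 21 members, 17 held a GC box, 8 a CCAAT box, 3 a forkhead match, 2 a TATA box and 1 an AP-1 match. A match is a description of the letters and was not tested against the expression values.

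Adamts20, an ADAMTS that acts on versican and is known for its part in melanoblast migration, was among the brightest members and passed with the block. Its intensities were 1384, 701 and 751 in GFP-positive and 460, 337 and 239 in GFP-negative cells. Pool 1 was highest in both groups, and each GFP-positive array exceeded all GFP-negative ones. The log2 difference was 1.35 ± 0.32 (SE; adjusted p = 0.0542 in limma, 0.00516 with the pool as a block), and it was 1.26 without pool 1 (adjusted p = 0.000879).

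Timp3 had 128, 94.8 and 81.4 in GFP-positive and 35.6, 45.9 and 56.3 in GFP-negative cells. The difference narrowed from 1.24 on the log2 scale in pool 1 to 0.70 and 0.36 in pools 2 and 3. Over all arrays it was 0.77 ± 0.20 (SE; adjusted p = 0.0728 in limma, 0.0457 with the block). Of its other tested probe sets, 1 gave 0.93 ± 0.19 (adjusted p = 0.0563 over probe sets, 0.0139 with the block), and a dim one gave -0.07.

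Adamts10, which binds fibrillin microfibrils, had 64.8, 43.5 and 62.9 in GFP-positive and 20.7, 18.3 and 31.8 in GFP-negative cells. The lowest GFP-positive array was above the highest GFP-negative one. The log2 difference was 0.68 ± 0.18 (SE; adjusted p = 0.0727 in limma, 0.0343 with the block), and it did not pass without pool 1 (0.58, adjusted p = 0.0502). Its dim second probe set gave -0.09.

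The remaining inhibitors did not pass. Timp1 had 36.7, 29.0 and 31.6 in GFP-positive and 62.7, 42.7 and 54.4 in GFP-negative cells, so the groups did not overlap, with a log2 difference of -0.40 ± 0.17 (SE; adjusted p = 0.202 in limma, 0.124 with the block). Timp2, which takes part in the activation of Mmp2 by Mmp14, had 188, 298 and 383 against 106, 361 and 253. Its groups overlapped, its log2 difference was 0.32 ± 0.40 (SE; adjusted p = 0.669 in limma), and it was -0.11 without the GFP-negative array of pool 1. The other 4 tested probe sets of Timp2 lay between -0.05 and 0.37.

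Mmp2, the gelatinase that Mmp14 activates, had 395, 692 and 716 in GFP-positive and 502, 651 and 1250 in GFP-negative cells, and the groups overlapped. Its difference was -0.34 ± 0.36 on the log2 scale (SE; adjusted p = 0.613 in limma); without the GFP-negative array of pool 3 it was 0.02, and a second probe set gave -0.08. Of the other tested MMPs, log2 differences were 0.48 for Mmp11, 0.46 for Mmp17, 0.22 for Mmp23, -0.08 for Mmp24 and -0.54 for Mmp16, and none passed in either fit.

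The ADAMs as a family had a median log2 difference of -0.08 and 0 of 11 passed in limma with or without the block. Among all genes 2.95% were higher and 1.71% lower, and 7.76% and 5.99% with the block. Adam10, the sheddase that makes the first ligand-induced cut of Notch receptors, was the brightest probe set of an ADAM. It had 1874, 1204 and 1202 in GFP-positive and 1310, 1001 and 909 in GFP-negative cells; the groups overlapped, while within each pool the GFP-positive array was the higher. This gave 0.39 ± 0.25 on the log2 scale (SE; adjusted p = 0.381 in limma). The other tested probe sets of Adam10 pointed the opposite way, at -0.68 (adjusted p = 0.0429 with the block, over probe sets) and -0.59, so no direction is given for this gene.

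Adam17, the sheddase of tumour necrosis factor alpha and of EGF receptor ligands, had 428, 305 and 327 in GFP-positive and 574, 466 and 612 in GFP-negative cells. Every GFP-negative array was above every GFP-positive one. This gave -0.60 ± 0.22 on the log2 scale (SE; adjusted p = 0.152 in limma, 0.0541 with the block), and its other probe sets gave -0.21 and -0.16. Adam9 showed the reverse order, with 653, 465 and 490 against 301, 379 and 286, and 0.68 ± 0.22 (SE; adjusted p = 0.12 in limma, 0.0557 with the block). Its groups did not overlap.

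For some members the fractions were close in pool 1 and apart in pools 2 and 3. Adamts1, a versican-cutting ADAMTS, had 96.2, 76.5 and 102 in GFP-positive and 95.5, 320 and 305 in GFP-negative cells. Its log2 difference was 0.01 in pool 1 and -1.70 and -1.33 in pools 2 and 3. Over all arrays it was -1.01 ± 0.38 (SE; adjusted p = 0.165 in limma, 0.0668 with the block), and without pool 1 it was -1.51 ± 0.16 (SE; adjusted p = 0.00033).

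Adamts4, another enzyme that cuts aggrecan and versican, was likewise close in pool 1 and apart in the others, with 51.1, 68.7 and 87.1 against 45.0, 233 and 270. In both genes the GFP-negative array of pool 1 lay among the GFP-positive arrays or below them. The value of Adamts4 was -0.88 ± 0.48 over all arrays (SE; adjusted p = 0.312 in limma) and -1.37 ± 0.16 without pool 1 (SE; adjusted p = 0.00055).

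The meltrins Adam12 and Adam19, ADAMs of mesenchyme and developing muscle, had log2 differences of 0.21 and -0.14 in pool 1. In pools 2 and 3 these were -0.89 and -1.06 for Adam12, and -0.87 and -0.93 for Adam19. Adam15 had -0.17, -0.44 and -1.66 in pools 1, 2 and 3, where the GFP-negative array of pool 3 (215) was well above the other 5 (37.8 to 75.1). Adamts4, Adam12 and Adam19 are described because of these values.

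Without pool 1, 6 members were higher (Mmp14, Adamts20, Timp4, Timp3, Adam9 and Adamts7) and 9 lower (Adamts9, Mmp9, Adamts1, Adamts4, Adam15, Adam12, Adam19, Adamts3 and Adam17), against 19.9% and 17.5% of all genes. Of these, Adamts7 reached the brightness filter on its GFP-positive arrays alone. Leaving out the GFP-negative array of pool 1 alone gave 5 higher and 8 lower members, and 2773 of all 12628 genes passed then. Each pool held 1 array of each fraction, so the difference between pools was not tested.

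**Figure D3:**
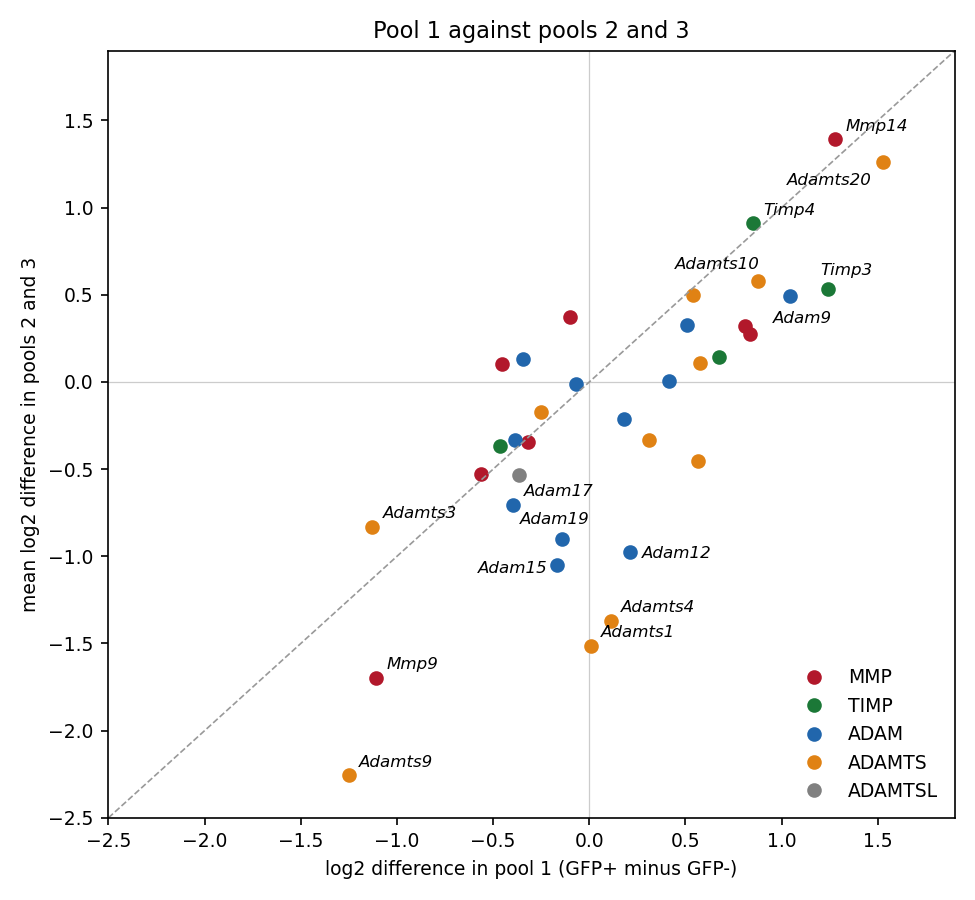
Log2 difference of each of the 35 tested members in pool 1 (horizontal) and its mean in pools 2 and 3 (vertical), coloured by family, with a dashed line where both are equal. Adamts1 lies at 0.01 in pool 1 and -1.51 in the other pools, Adamts4 and Adam12 are placed likewise, and Mmp14 and Timp4 lie near the line.

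Marker lists of other cell types moved between the same arrays. The summed intensity of 10 measured endothelium and blood genes (12 listed; Pecam1 and Tie1 were too dim to be tested) was 318, 3623 and 1584 in GFP-positive and 6430, 11606 and 17863 in GFP-negative cells, so it was lowest in pool 1 of both fractions. On the GFP-negative arrays most of it came from the globin gene Hbb-bh1, at 4653, 6396 and 9951. Of the 10 genes only Etv2, at 386, 352 and 386, was not lowest there in pool 1. The summed intensity of 10 lateral and intermediate mesoderm genes was 416 to 720 in GFP-positive cells, and 2424, 5796 and 5908 in GFP-negative cells of pools 1, 2 and 3. Of these lists 5 and 6 genes passed as lower in GFP-positive cells, and 0 as higher. Over all genes, 1.71% passed as lower and 2.95% as higher. For 10 mesenchyme genes the sum was 5255, 3420 and 3412 in GFP-positive and 5243, 5338 and 4603 in GFP-negative cells, with 4 lower and 0 higher. The 4 lower genes were Snai2, Col1a1, Col1a2 and Col3a1. Vim, Pdgfrb and Pdgfra had log2 differences of 0.76, 0.82 and 0.40, and Lum, Snai1 and Twist1 -1.65, -0.46 and -0.05, without passing. Much of the sum was Vim and Pdgfra, at 2949 and 1346 on the GFP-positive array of pool 1. Markers of 2 other tissues were higher with the sort: 10 paraxial mesoderm genes summed to 4560 to 4891 in GFP-positive and 1580 to 1795 in GFP-negative cells, with 4 higher and 0 lower. For 8 gut endoderm genes the sums were 1453 to 3086 and 615 to 1005, again with 4 higher and 0 lower. Of the smaller lists, surface ectoderm had 2 and allantois and extraembryonic tissue 3 genes lower, and 0 of 6 neural plate genes passed. The surface ectoderm genes Wnt6 and Krt5 had log2 differences of 0.43 and 0.24 and did not pass. In the allantois and extraembryonic list Afp, Ttr and Apoa1 had 1.37, 0.96 and 0.75, also without passing. Its lower gene Tbx4 was counted among the lateral mesoderm genes too. The part of these cell types, and of the RNA quality of pool 1, was not tested in the values of Mmp14, Timp4, Adamts20, St14, Spint1, Adamts9, Mmp9, Adamts3, Adamts1, Adamts4, Adam12 and Adam19.

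**Figure D4:**
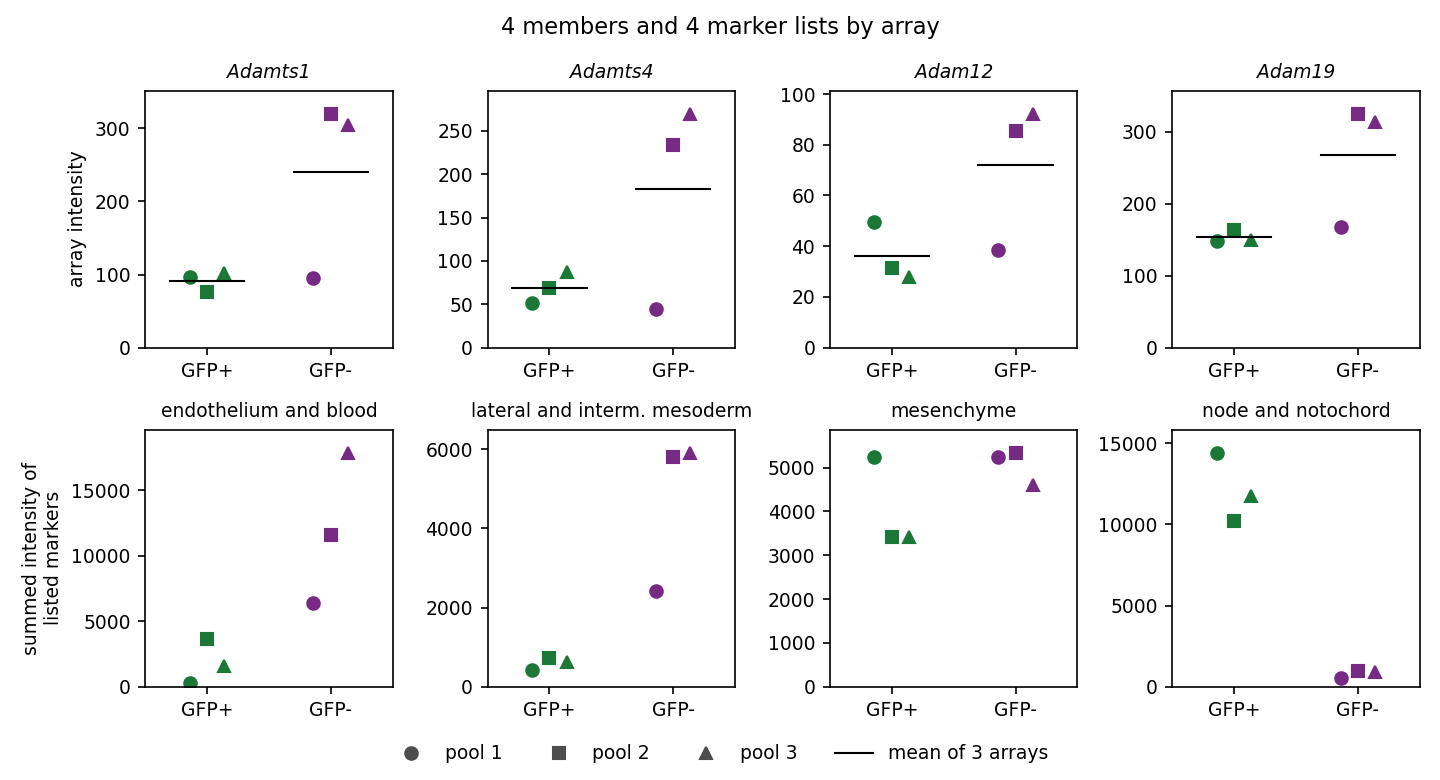
Top row: array intensity of Adamts1, Adamts4, Adam12 and Adam19 by fraction and pool, with a line at each group's mean. Bottom row: summed intensity of the measured markers of 4 cell types on the same arrays. The GFP-negative array of pool 1 is the lowest of its group for all 4 members and for the endothelium and blood (6430) and lateral mesoderm (2424) lists. Most of the endothelium and blood sum on the GFP-negative arrays is Hbb-bh1.

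Other ADAMTS members were close in both fractions or dim. Adamts7, which cuts the cartilage protein Comp, had 17.8 to 22.2 in GFP-positive and 2.34 to 6.51 in GFP-negative cells. Its log2 difference was 0.51 ± 0.13 (SE; adjusted p = 0.063 in limma). Only its GFP-positive arrays reached the brightness filter, so it was tested through the fraction where it was higher. No support is drawn from its call without pool 1. Adamts15, Adamts12, Adamts6 and Adamts16 had 0.27, -0.11, -0.12 and -0.20, and none passed in any of the 3 fits described. Adamtsl2, which lacks a protease domain and binds fibrillin, had 62.2, 127 and 133 in GFP-positive and 89.2, 149 and 271 in GFP-negative cells. The groups overlapped, with a log2 difference of -0.48 ± 0.36 (SE; adjusted p = 0.462 in limma). The ADAMs Adam23, Adam11, Adam8, Adam22 and Adam4 lay between -0.35 and 0.14 and did not pass, Adam11, Adam22 and Adam23 being adhesion proteins without protease activity.

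The other 35 member genes, with 48 probe sets, were too dim to be tested: 10 MMPs, 17 ADAMs, 4 ADAMTSs and 4 ADAMTS-like genes. The highest intensity of such a gene on any array ranged from 2.72 for Adam6a to 44.5 for Adam21, with a median of 14.4 over the 35 genes. They include the collagenases Mmp8 and Mmp13, the stromelysins Mmp3 and Mmp10, and the aggrecan-cutting Adamts5. A value this low can be background, so no absence of the transcript is read from it. A further 20 probe sets of tested genes were also too dim.

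Of 16 listed genes of the plasminogen system, pericellular serine proteases, their inhibitors and other serpins with a named probe set, 11 were tested. In limma 6 of these were higher in GFP-positive cells, 0 were lower and 5 did not pass. Over all genes 2.95% were higher and 1.71% lower. The membrane protease Tmprss2 rose by 3.59 ± 0.24 (SE, log2), the secreted protease Htra1 by 2.63 ± 0.18 and tissue plasminogen activator Plat by 1.60 ± 0.21. The matriptase gene St14 and its inhibitors Spint1 and Spint2 rose by 1.14, 1.09 and 1.51. Plat had 405, 527 and 531 in GFP-positive and 121, 154 and 141 in GFP-negative cells, without overlap. The urokinase receptor gene Plaur and the secreted protease gene Htra3 had -0.60 and -0.62 (adjusted p = 0.418 and 0.249 in limma). Without pool 1 both passed as lower, at -1.01 and -0.99 (adjusted p = 0.00735 and 0.0113). The serpin gene Serpinh1 passed as higher then, at 0.47 (adjusted p = 0.0105 in limma), against 0.19 over all arrays (adjusted p = 0.642). So 7 of the 11 were higher and 2 lower without pool 1, where 19.9% and 17.5% of all genes were. Without both arrays of pool 2, 0 of the 11 and 5 of all 12628 genes passed, and without those of pool 3, 2 of the 11 and 59 of all genes.

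Of 10 tested genes of other extracellular metalloproteinases and their helpers, 2 were lower and 0 higher, where 1.71% and 2.95% of all genes were. The neutral endopeptidase Mme had 19.99, 22.6 and 22.8 in GFP-positive and 56.4, 89.3 and 78.7 in GFP-negative cells (log2 difference -0.98 ± 0.18, SE; adjusted p = 0.0229 in limma). Pcolce, which enhances the cutting of the C-terminal propeptide of procollagens, had -0.76 ± 0.15 (SE; adjusted p = 0.0346 in limma). Neither passed without both arrays of pool 2 or of pool 3, or without any 1 array other than the GFP-negative array of pool 1. With the block, Pappa, which cuts IGF-binding proteins, passed as higher (0.64, adjusted p = 0.0481), where 7.76% of all genes did. Pcolce2 went the other way from Pcolce, with 271, 406 and 425 in GFP-positive and 203, 232 and 260 in GFP-negative cells. Its 0.58 did not pass (adjusted p = 0.183 in limma, 0.0562 with the block), nor did Bmp1 at 0.58. Without pool 1 both passed as higher, at 0.69 and 0.71. Then 4 of the 10 genes were higher and 3 lower, against 19.9% and 17.5% of all genes.

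Genes that regulate metalloproteinases, such as furin-like convertases that remove their propeptides and tetraspanins that carry Adam10, gave 0 calls among 16 tested in limma. With the block 3 were higher: the convertase Pcsk5 at 0.60, the tetraspanin Tspan5 at 0.59 and Bsg, a membrane protein that induces MMPs, at 0.79 (adjusted p = 0.0477, 0.0472 and 0.0392). Over all genes 2.95% were higher and 1.71% lower, and with the block 7.76% and 5.99%. Pcsk5 had 630, 630 and 558 in GFP-positive and 356, 417 and 394 in GFP-negative cells, without overlap (adjusted p = 0.109 in limma without the block). Lrp1, an endocytic receptor that clears MMPs and TIMPs, had 0.63 ± 0.25 (SE; adjusted p = 0.181 in limma, 0.0534 with the block). Without pool 1, 4 of the 16 were higher (Pcsk5, Tspan5, Bsg and Lrp1) and 1 lower, against 19.9% and 17.5% of all genes. The lower one was Reck, at -0.59 (adjusted p = 0.0129 in limma), against -0.30 over all arrays (adjusted p = 0.483). Within pools 1, 2 and 3 Reck had 0.29, -0.62 and -0.57.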

How the data were processed

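Deposited were linear signal intensities per probe set from 1-colour arrays, made with GCOS 1.4 per the submitters' processing notes. By their values each array was scaled to a mean of 150 with 2% trimmed at each end. Detection calls were not used here; the number of arrays limits the precision. Probe sets were named from the platform annotation (34945 with 1 symbol, 932 with several, 9160 with none besides 64 controls); 5 probe sets that listed a member among several symbols were left out. 0 per-sample columns were unused. Noto, Mmp15 and Mmp21 were not analysed here.

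Tests used the log2 of each intensity plus 32. A probe set was tested if at least 3 of 6 arrays reached that array's 40th percentile (11.7 to 18.4). A gene dim in either fraction could be tested through the other alone, as Adamts7, Comp and the markers Dand5 and Vcam1 were. Of the GFP-negative arrays, only that of pool 1 reached the filter for Timp4, and only that of pool 2 for Col2a1. Each gene was represented by its tested probe set with the highest mean. A linear model (limma 3.58.1 under R 4.3.3, lmFit and trended eBayes) was fitted over all genes, and apart over all probe sets, with Benjamini-Hochberg adjustment and a threshold of 0.05. No set test was run. Filter and probe sets were kept when arrays were left out. Simulated data served to test this fit. Figures were drawn with Python 3.11.15.

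Same-numbered arrays came from 1 pool of embryos per the labels, so they pair; their deviations from group means correlated at 0.542, 0.286 and 0.436 within pools 1 to 3. Across pools 2 and 3 they correlated at 0.38 and 0.279, so the pairing rests on the labels. Pools were separate. Without the block, p-values rest on the spread between the 3 arrays of each fraction. With the block, they rest on how far the within-pool differences vary between these 3 pools. Both fits also draw on the variance of other genes. Members and lists were chosen with earlier results of these data known. The rule named all TIMPs, Mmp2, Mmp9, Mmp14, Adam10, Adam17, Adamts1 and every member that passed with or without the block. It also named the 2 widest differences of each family. From other lists it named those that passed with or without the block. Where none passed without the block, the 2 with the lowest adjusted p in that fit were named too. Plaur, Htra3, Serpinh1, Pcolce2, Bmp1 and Reck were described after their values were seen. Adamts4, Adam12 and Adam19 were added after their values were seen. Alternatives were the offset, quantile normalization, the filter, the variance model, the block, the mean over probe sets, the threshold, and each array or pool left out.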

Additional observations from a re-analysis of the deposited data

How the results depend on the processing

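With the pool as a replicate block, 5 member genes were higher, and 6 and 5 member probe sets were higher and lower; 3 regulators and 12 substrates passed, and 1737 of all 12628 genes against 588 without the block. The block changed no other call on the members named above, and the sign of the 20 named members changed in 3 cases only: -0.30 for Adam10 with the mean of its probe sets, 0.024 for Mmp2 without the GFP-negative array of pool 3, and -0.11 for Timp2 without that of pool 1. With arrays or pools left out, Mmp2 ranged from -0.61 to 0.024 and Timp2 from -0.11 to 0.65. Quantile normalization gave 5 higher genes and 2 higher probe sets (658 of all genes called). Without a filter, where 70 member genes and 18193 genes in all were tested and 334 of these called, 0 were higher and 1 lower, with 0 probe sets higher and 1 call among other metalloproteinases. The 60th percentile filter gave 2 higher probe sets and no variance trend 0. At an adjusted p of 0.1, 6 genes and 5 probe sets were higher (1242 of all genes called). Leaving out arrays or pools gave 0 to 6 higher and 0 to 9 lower genes, 0 to 6 higher and 0 to 14 lower probe sets, and 0 to 5 regulators, 0 to 7 other metalloproteinases, 0 to 9 serine protease genes and 0 to 15 substrates, where 5 to 4724 of all genes were called; where the count fell or rose, the cause was not tested. The median log2 difference of the members moved by less than its spread between pools in all settings. With 3 arrays a group and dim signals, a difference that did not pass is not shown to be absent.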

Other observations

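Of 24 tested genes whose proteins members of these families are known to cut, 5 were higher in GFP-positive cells and 2 lower in limma; with the pool as a block 9 were higher and 3 lower. Over all genes 2.95% were higher and 1.71% lower, and 7.76% and 5.99% with the block. The epithelial cadherin Cdh1 and the receptor Notch1, both cut by ADAMs, rose by 1.98 ± 0.21 and 1.83 ± 0.21 (SE, log2), and the Notch ligand Dll1 rose by 1.11 ± 0.21. The cartilage protein Comp rose by 1.76. Its GFP-negative arrays were all below the brightness filter, so it was tested through the GFP-positive ones alone. Type II collagen (Col2a1) rose from 3.05, 15.8 and 5.18 in GFP-negative to 52.6, 86.6 and 83.3 in GFP-positive cells. Of its GFP-negative arrays only that of pool 2 reached the brightness filter, so the GFP-positive arrays were enough to have it tested. The collagens of interstitial matrix were lower, with -2.44 ± 0.43 for Col3a1 and -1.70 ± 0.21 for Col1a1. With the block Dll3, Col4a1, Ptprk and Cdh2 also passed as higher, at 0.95, 0.87, 1.21 and 0.62 (adjusted p = 0.0137, 0.0277, 0.0103 and 0.0427). Versican (Vcan), a substrate of Adamts1, Adamts4, Adamts9 and Adamts20, had 1537, 745 and 682 in GFP-positive and 1785, 1728 and 1463 in GFP-negative cells. Its log2 difference was -0.82 ± 0.31 (SE; adjusted p = 0.162 in limma, 0.0451 with the block), and -1.12 without pool 1 (adjusted p = 0.00049). Without both arrays of pool 2, 0 of the 24 passed, and 2 without those of pool 3, where 5 and 59 of all 12628 genes did.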
